A study of Mus musculus with 3 samples.

Results

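The actin cytoskeleton regulators described here are 50 genes, of the 55536 genes listed in each gene table, that encode actin and the proteins that hold, assemble, branch, cap, cut and pull its filaments or control those steps. They were given as a list of names, drawn up with earlier results of these data known, and each of the 50 symbols matched 1 gene identifier. Total RNA was sequenced from blood monocytes of C57BL/6J mice, adults at an age of 5 to 6 weeks, in 3 libraries that are replicates 1, 2 and 3 of the only group. No treatment, genetic change or comparison group is recorded, sex was not collected, and the sources used here do not give the gate by which the cells were isolated. The labels number the libraries as biological replicates under 1 donor record, so the spread behind each p-value is that between libraries and could be technical.

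Actin is a globular protein that polymerises into filaments, and cells move and change shape by growing filaments at one end and taking them apart at the other. Thymosins and profilins hold monomers in reserve or hand them on, cofilin cuts old filaments, the Arp2/3 complex starts branches when WASP or WAVE proteins switch it on, and formins and Ena/VASP proteins lengthen straight filaments until capping protein closes the end. Monocytes use these steps to crawl along vessel walls, pass through them and engulf particles, under the control of small GTPases. Several of the genes have a form restricted to blood cells beside a widely expressed relative.

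The libraries held 27.2, 26.5 and 19.9 M expected counts, and a transcript of 1000 bases at 1 TPM (a level corrected for transcript length and library size) stood for 112, 121 and 76.0 counts in libraries 1, 2 and 3. Protein-coding genes held 10.9%, 9.84% and 10.7% of the TPM total, so TPM values here are low beside those scaled to the protein-coding genes only. Markers were checked against the label. All 10 monocyte markers lay above 1 TPM, with a summed level of 1564 to 2564 TPM, but NK cell markers (8 of 8 above 1 TPM, summed level 569 to 1623 TPM), B cell markers (5 of 7, 83.9 to 93.0 TPM) and red cell markers (5 of 8, 263 to 3535 TPM) were also present. T cell markers were low (2 of 8, 4.89 to 8.41 TPM, with Cd3e at 0.0300 to 0.160 TPM), and none of 6 fibroblast or smooth muscle markers lay above 1 TPM. Library 3 stood apart from the others, with NK cell and platelet markers higher and red cell and most neutrophil markers lower. Leaving library 3 out moved the mean of a member by at most 1.38-fold (Fmnl1, from 30.4 to 22.1 TPM). Only some of the calls and spreads that depend on library 3 are named below. Without it, for example, the coefficient of variation fell from 40.6% to 9.69% for Wipf1 and rose from 24.3% to 33.3% for Arpc5l. Because these are bulk samples, fewer cells of a type and less RNA per cell cannot be told apart, and the part of other cell types in any level below was not tested.

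Each of the 50 genes was above 1 TPM (edgeR quasi-likelihood test on expected counts, adjusted p under 0.05) and 0 were below it; 43.2% of all genes tested and 54.0% of the protein-coding ones lay above, and 6.02% of the protein-coding ones lay below. At the higher level of 10 TPM, 41 members were called above and 2 below, and 7 could not be placed, whereas 9.53% of all genes tested and 11.1% of protein-coding genes lay above 10 TPM and 68.4% of protein-coding genes lay below it. The median member had a mean of 44.6 TPM and the median of 12996 protein-coding genes tested 2.09 TPM. Ranked by mean TPM among protein-coding genes, 8 members were in the first 100, 28 in the first 500 and 37 in the first 1000. Together they took 4.67%, 4.62% and 4.55% of protein-coding TPM in libraries 1, 2 and 3, and Actb and Tmsb4x alone held 37.9%, 38.3% and 33.0% of the members' summed TPM. Counts per member and library ran from 414 to 138801, and 1 member, Cdc42, had a spread between libraries within the counting error of its counts. All 50 genes passed the minimum of 10 summed counts.

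**Figure D1:**
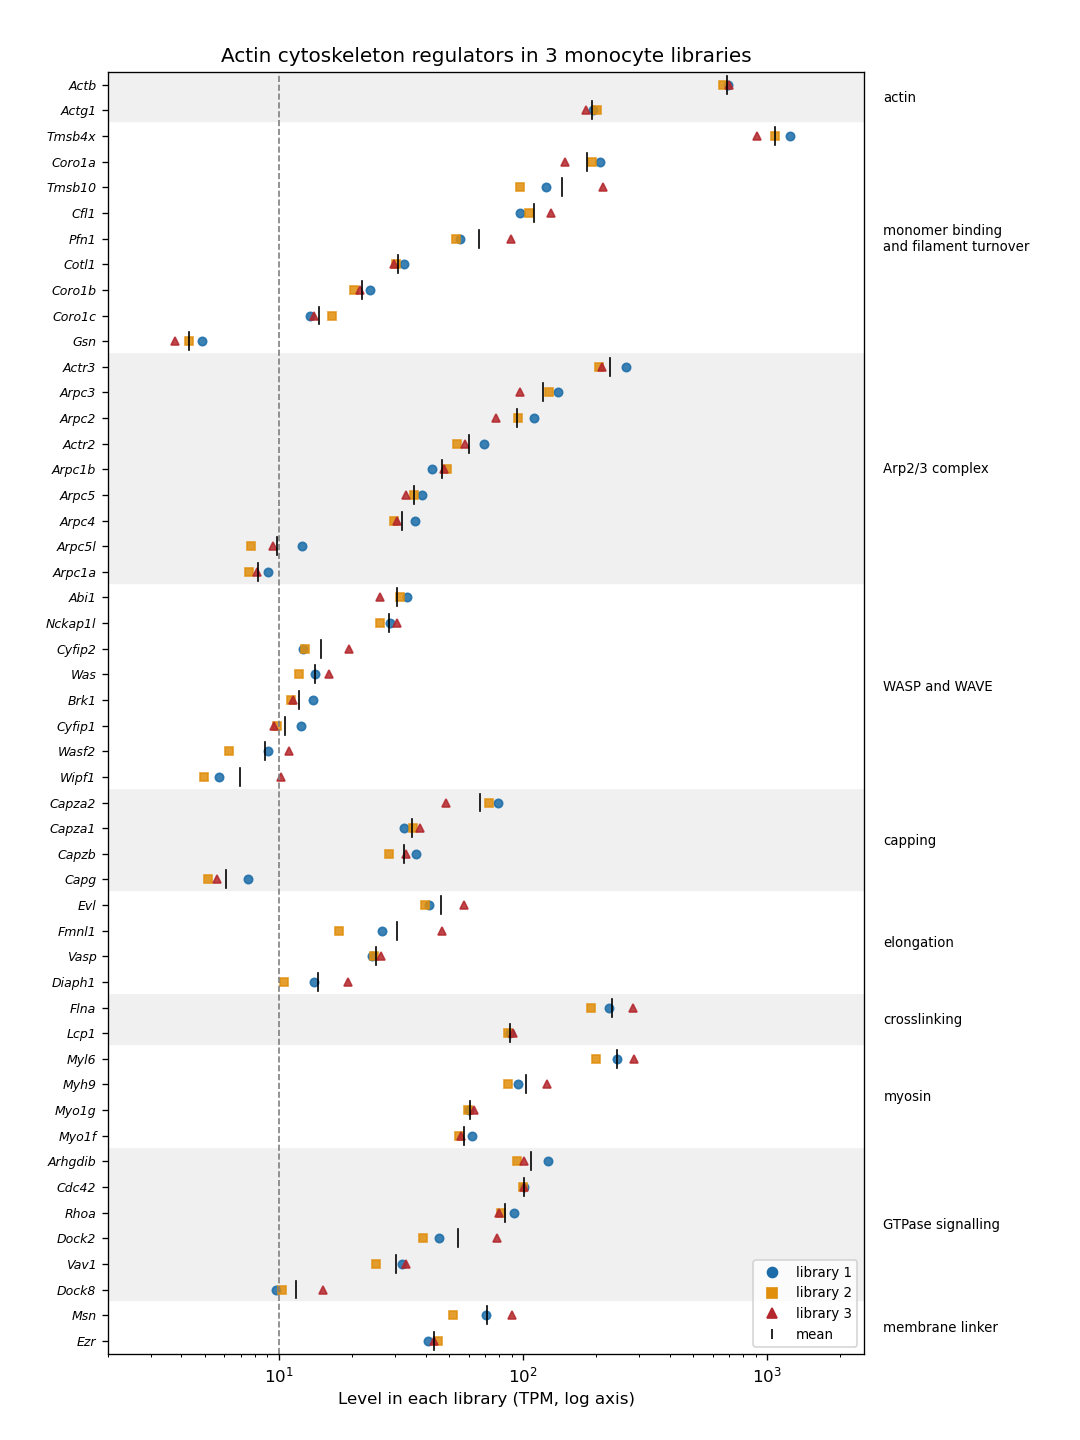
Level of each of the 50 genes in libraries 1, 2 and 3 (points, TPM on a log axis), with the mean as a black bar and 10 TPM as a dashed line, grouped by role. Tmsb4x and Actb lie far to the right, and Gsn, Capg and Arpc1a lie to the left of 10 TPM in every library. Of these, Gsn and Capg were called below 10 TPM and Arpc1a was not.

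Actb, which encodes cytoplasmic beta-actin, was among the most abundant protein-coding transcripts, and Actg1, which encodes the closely related gamma-actin, stood well below it. Actb (ENSMUSG00000029580.14, chromosome 5, 142903115 to 142906754, mm10) reached 691, 663 and 698 TPM, a mean of 684 TPM ± 18.8 (SD, n = 3), and ranked 5 among protein-coding genes. Actg1 had 194, 201 and 181 TPM, a mean of 192 TPM ± 10.2 (SD, n = 3). The ranges did not overlap, and Actb made up 78.1% ± 1.35 (SD, n = 3) of the TPM of both. The log2 difference was 1.83, 1.72 and 1.95, a mean of 1.83 ± 0.11 (SD, n = 3) or 3.57-fold, with the same order in 3 of 3 libraries. With 3 libraries the smallest p of a two-sided exact sign-flip test is 0.25, the value found here and for every pair below that had 1 order in 3 libraries (adjusted p = 0.261 over 24 pairs). Both coding sequences have 1125 bases and share 88.6% of them, and 4 of 375 codons encode another residue. The first coding bases, which hold the codons that differ near the start of the protein, are shown 5′ to 3′ with differing bases in capitals (Actb-201 at chr5:142905627-142905686 and Actg1-202 at chr11:120348032-120348091, both on the minus strand, mm10, first coding exon):
Actb-201: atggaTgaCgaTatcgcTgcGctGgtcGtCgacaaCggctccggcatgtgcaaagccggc
Actg1-202: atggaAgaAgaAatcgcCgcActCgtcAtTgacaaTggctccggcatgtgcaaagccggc
In these first 60 bases 9 differ. Actg1 also has 5 near-identical copies elsewhere in the annotation (95% identity or more over 50% or more), the most abundant at 7.98 TPM, so its level is less certain than that of Actb, for which no such copy was found. The muscle actins Acta1 and Actc1 and the actin-like Actbl2 had 0 counts in each library.

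Tmsb4x, which encodes thymosin beta-4, the main buffer of actin monomers, was the most abundant member, and its relative Tmsb10 differed from it in how it varied between libraries. Tmsb4x (ENSMUSG00000049775.16, chromosome X, 167207093 to 167209315, mm10) had 1239, 1078 and 912 TPM, a mean of 1076 TPM ± 164 (SD, n = 3), and ranked 3 among protein-coding genes. Tmsb10, thymosin beta-10, had 124, 97.5 and 214 TPM, a mean of 145 TPM ± 60.9 (SD, n = 3). Library 3 had the lowest Tmsb4x and the highest Tmsb10, and without it the mean of Tmsb10 was 111 TPM and its coefficient of variation 16.7% in place of 42.0%. The log2 difference was accordingly 3.32, 3.46 and 2.09 (mean 2.96 ± 0.75, SD, n = 3), and Tmsb4x made up 90.9%, 91.7% and 81.0% of the TPM of both. Thymosin transcripts outnumbered those of both actins, with ratios of summed TPM of 1.54, 1.36 and 1.28. Each thymosin is encoded by 132 bases, short enough to show whole, without the stop codon and 5′ to 3′ with the 40 differing bases in capitals (Tmsb4x-201 between chrX:167207504-167208036 and Tmsb10-203 between chr6:72957621-72958012, both on the minus strand, mm10, joined over the exons):
Tmsb4x-201: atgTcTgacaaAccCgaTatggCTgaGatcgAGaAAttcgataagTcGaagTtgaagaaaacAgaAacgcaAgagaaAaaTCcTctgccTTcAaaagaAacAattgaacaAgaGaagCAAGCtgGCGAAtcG
Tmsb10-203: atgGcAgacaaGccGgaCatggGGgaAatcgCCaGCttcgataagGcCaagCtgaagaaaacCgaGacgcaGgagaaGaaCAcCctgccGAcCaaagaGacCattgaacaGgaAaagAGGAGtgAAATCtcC
They share 69.7% of the bases, and 11 of 44 codons encode another residue. The longest stretches without a capital letter are the runs tgaagaaaac and ttcgataag. A near-identical copy of Tmsb10 elsewhere in the annotation had 1.99 TPM.

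The other monomer-binding and filament-turnover genes spanned a wide range. Cfl1, cofilin, which cuts filaments, had 97.7, 106 and 130 TPM, and Pfn1, profilin, which delivers monomers to growing ends, had 55.3, 53.2 and 89.7 TPM. Both were highest in library 3, and for Pfn1 the other libraries lay close together. The relatives paired with them were low. Cfl2 had 5.38, 4.08 and 3.41 TPM, and Pfn2 had 0, 0.0900 and 0.110 TPM from 0, 7 and 11 counts. Dstn, a further relative of cofilin named after its values were seen, was higher, with 15.3, 15.8 and 11.2 TPM. It was called above 10 TPM (edgeR adjusted p = 0.0359). Coro1a, the coronin of blood cells, which binds filaments and the Arp2/3 complex, had 208, 192 and 149 TPM (183 TPM ± 30.4, SD, n = 3). The widely expressed coronins Coro1b and Coro1c had 21.9 TPM ± 1.73 and 14.7 TPM ± 1.64 (SD, n = 3 each), so Coro1a stood 3.05 ± 0.24 and 3.63 ± 0.28 (log2, SD, n = 3) above them in 3 of 3 libraries. Coro1b shares a stretch of its strand with Ptprcap, which had 21.4 TPM, and 32.7% of its TPM lay in protein-coding transcripts, so its level is uncertain. Cotl1, coactosin-like protein, had 32.5, 30.3 and 29.8 TPM. Gsn, gelsolin, which cuts and caps filaments when calcium is high, was the lowest of the 50 genes, with 4.84, 4.30 and 3.78 TPM and a level below 10 TPM (edgeR adjusted p = 0.00144).

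The Arp2/3 complex, which starts new filaments as branches from old ones, has 7 subunits, of which ARPC1 and ARPC5 each come in a pair of alternative forms. All 9 genes were above 1 TPM, 7 were above 10 TPM, and the other two, Arpc1a and Arpc5l, lay on neither side of 10 TPM. Arpc1b, the form that prevails in blood cells, had 42.6, 49.1 and 47.8 TPM, and Arpc1a had 9.02, 7.59 and 8.17 TPM. The ranges lay far apart, and Arpc1b made up 82.5%, 86.6% and 85.4% of ARPC1 TPM. Arpc5 had 38.7, 35.8 and 33.1 TPM and Arpc5l 12.5, 7.72 and 9.45 TPM, so that Arpc5 made up 78.6% ± 3.38 (SD, n = 3). Arpc5l overlaps Rpl35, a ribosomal protein gene on the opposite strand at 49.5 TPM, and how strand was treated in counting is not stated.

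The subunits themselves were not level with each other. Actr3, the actin-related protein ARP3, was the highest with 266, 205 and 211 TPM, against 69.4, 53.9 and 57.9 TPM for its partner Actr2, a ratio of 3.76 ± 0.0998 (SD, n = 3). Of the subunits with a single gene, Arpc3 had 121 TPM ± 21.4, Arpc2 94.8 TPM ± 16.7 and Arpc4 32.1 TPM ± 3.51 (SD, n = 3 each). The transcript that led Actr3 in each library, Actr3-204, is annotated as a retained intron of 978 bases and took 46.5%, 43.3% and 46.5% of its TPM. In protein-coding transcripts alone the ratio of Actr3 to Actr2 was 2.08 ± 0.158 (SD, n = 3). The highest of the 7 subunits then stood 3.87 ± 0.505 times above the lowest, where it had been 7.05 ± 0.262 times with all transcripts counted (SD, n = 3 each).

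**Figure D2:**
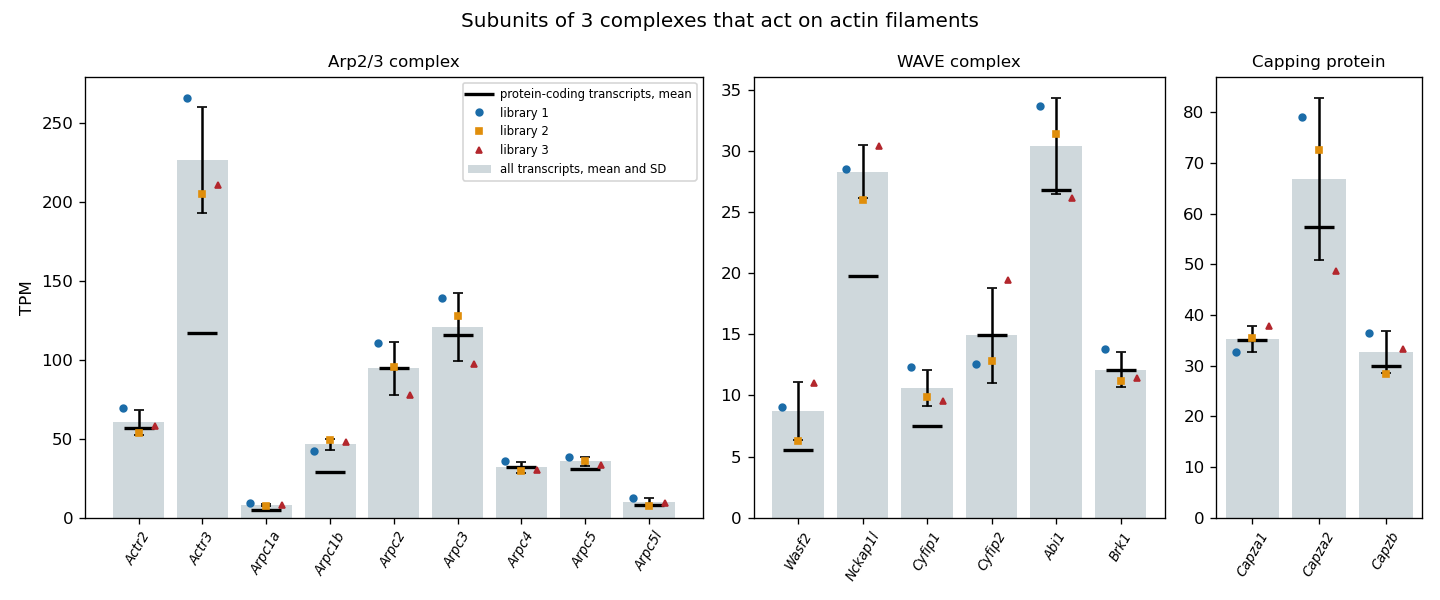
TPM of the subunits of the Arp2/3 complex, the WAVE complex and capping protein: grey bars give the mean and error bars the SD of 3 libraries, points each library, and black lines the mean over protein-coding transcripts alone. The line lies far below the bar for Actr3 (117 against 227 TPM) and at the bar for Arpc2.

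WASP and WAVE proteins activate the Arp2/3 complex. The 8 genes of these proteins and their partners had a median of 13.1 TPM, against 46.5 TPM over the 9 Arp2/3 genes. The ranges overlapped, from 6.94 (Wipf1) to 30.4 TPM (Abi1) against 8.26 (Arpc1a) to 227 TPM (Actr3). Was, the WASP protein that is defective in Wiskott-Aldrich syndrome, had 14.1, 12.1 and 16.1 TPM, and its widely expressed relative Wasl had 0.670, 1.26 and 2.14 TPM. The difference between Was and Wasl was 3.41 ± 0.71 (log2, SD, n = 3) with the same order in 3 of 3 libraries, and it was smallest in library 3. Wipf1, which binds and stabilises WASP, had 5.69, 4.96 and 10.2 TPM, a level not separated from 10 TPM (edgeR adjusted p = 0.0742). It was higher in library 3 than in the others, and Wipf2 had 0.863 TPM ± 0.438 (SD, n = 3).

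Among the WAVE proteins Wasf2 was the form detected. It had 9.02, 6.27 and 11.0 TPM, while Wasf1 and Wasf3 had 0 counts in each library. For Wasf1 a count of 0 allows up to 0.0107, 0.00987 and 0.0159 TPM (3 counts per library, counting error only), so Wasf2 was at least 635-fold higher within each library. The other subunits of the WAVE complex were Nckap1l (HEM1, its form in blood cells) at 28.5, 26.0 and 30.4 TPM, Abi1 at 33.7, 31.4 and 26.1 TPM, and Brk1 at 13.8, 11.2 and 11.4 TPM. Nckap1, the widely expressed relative of Nckap1l, had 0.570 TPM ± 0.200 (SD, n = 3), which is 5.45 ± 0.33 lower on the log2 scale. The alternative subunits Cyfip1 and Cyfip2 were closer, with 12.3, 9.88 and 9.58 TPM for Cyfip1 and 12.6, 12.8 and 19.4 TPM for Cyfip2. Both were nearly equal in library 1 and apart in library 3, so the mean log2 difference of -0.47 ± 0.49 (SD, n = 3) was within its spread although the order held in 3 of 3 libraries.

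Capping protein, a pair of an alpha and a beta subunit, closes the growing end of filaments. Capza2 had 79.0, 72.6 and 48.6 TPM and Capza1 32.7, 35.4 and 37.9 TPM, so Capza2 was the main alpha transcript in each library, with 70.7%, 67.3% and 56.2% of both. The single beta gene Capzb had 36.5, 28.3 and 33.3 TPM, less than both alpha genes together by a factor of 3.06, 3.81 and 2.60. Capg, a gelsolin relative that caps without cutting and is known from macrophages, had 7.52, 5.14 and 5.61 TPM, under 10 TPM by the edgeR test (adjusted p = 0.0296), but not when library 1 (0.0759) or library 2 (0.124) was left out. Gsn and Capg, both calcium-dependent members of the gelsolin family, were thus the 2 members below 10 TPM. On TPM over protein-coding genes alone their fitted levels were 41.2 and 57.9 TPM and both lay above 10 TPM (edgeR adjusted p = 1.41e-06 and 3.82e-07). Neither was called with DESeq2 (adjusted p = 0.0781 and 0.253) or in the read-based tables (edgeR adjusted p = 0.495 and 0.836).

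Proteins that lengthen filaments were all above 10 TPM. Evl, an Ena/VASP protein, had 41.4, 39.6 and 57.5 TPM and its relative Vasp 24.1, 24.7 and 26.2 TPM. Evl was thus higher in 3 of 3 libraries, by 0.86 ± 0.24 (log2, SD, n = 3), but in the tables made with the M4 annotation Evl had 22.3, 20.9 and 29.1 TPM against 24.0, 24.8 and 26.6 TPM, and the order was gone. A short transcript of 569 bases, Evl-207, held 37.0%, 40.0% and 38.2% of the Evl TPM on M21. Fmnl1, the formin of blood cells, had 26.4, 17.7 and 46.9 TPM and the largest coefficient of variation of all members over 3 libraries, 49.4%; without library 3 it was 27.8%, and Arpc5l was highest with 33.3%. A short Fmnl1 transcript of 450 bases, Fmnl1-205, held 45.1%, 33.0% and 51.2% of the Fmnl1 TPM in libraries 1, 2 and 3. Fmnl2 had 0.150, 0.0700 and 0.190 TPM. Diaph1, the formin that RhoA activates, had 13.9, 10.5 and 19.2 TPM and Diaph2 3.23, 3.52 and 5.51 TPM. The calls of Diaph1 (adjusted p = 0.115 and 0.0978 without library 1 or 3), Coro1c (0.0882 and 0.120 without library 1 or 2), Was (0.172 and 0.0570 without library 1 or 2) and Cyfip2 (0.0523 without library 1) above 10 TPM were lost in the edgeR test when those libraries were left out.

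The 2 crosslinking members were abundant. Flna, filamin A, which joins filaments into a mesh, had 226, 190 and 283 TPM, and Lcp1, L-plastin, the bundling protein of blood cells, had 88.4, 87.2 and 91.5 TPM. Lcp1 varied little, with a coefficient of variation of 2.52%, and Flna more, with 20.3%. Among their relatives, Flnc, the muscle filamin, had 0 counts in each library, and Pls3, the plastin of other tissues, had 0.140, 0.0700 and 0.120 TPM. Of the Flna TPM, 43.1% lay in protein-coding transcripts. Flna-206, a transcript of 704 bases annotated for nonsense-mediated decay, took 25.9%, 28.3% and 25.6%, about as much as the full-length Flna-202 of 8345 bases (27.7%, 25.6% and 24.0%).

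Myosins pull on filaments or link them to membranes. Myh9, the heavy chain of non-muscle myosin IIA, had 95.3, 86.7 and 126 TPM, while Myh10, that of myosin IIB, had 0.0800, 0.0100 and 0.140 TPM from 30, 6 and 10 counts. Myl6, a light chain, had 243, 200 and 285 TPM (243 TPM ± 42.7, SD, n = 3), with 5 near-identical copies elsewhere, of which Gm5526 had 21.6 TPM. The single-headed myosins Myo1f and Myo1g, both known from blood cells, had 57.5 TPM ± 3.65 and 60.9 TPM ± 1.85 (SD, n = 3 each) and could not be ordered: Myo1f was higher in library 1 and lower in libraries 2 and 3 (exact sign-flip p = 0.500). In protein-coding transcripts alone Myo1f stood 0.42 (log2) above Myo1g.

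The GTPases and their regulators lay mostly at high levels. Cdc42, which drives the formation of filopodia, had 101, 99.9 and 101 TPM and the smallest coefficient of variation of all members over 3 libraries, 0.810%; it was 0.279% without library 2, and without library 3 it was 1.10% and Myo1g (0.473%) was lower. Rhoa, which drives contraction, had 92.4, 81.2 and 80.1 TPM. Arhgdib, an inhibitor that keeps such GTPases in the cytosol of blood cells, had 127, 94.9 and 101 TPM, and its widely expressed relative Arhgdia 17.1, 16.2 and 27.0 TPM, a difference of 2.44 ± 0.50 (log2, SD, n = 3) that was smallest in library 3. Dock2, an exchange factor of blood cells that activates Rac, had 45.3, 38.9 and 78.8 TPM and Dock8 9.74, 10.3 and 15.2 TPM; both were highest in library 3. Vav1, the exchange factor of blood cells that tyrosine kinases switch on, had 32.1, 25.1 and 33.4 TPM and Vav2 1.81 TPM ± 0.0854 (SD, n = 3). Msn, moesin, which ties filaments to the membrane, had 70.8, 51.7 and 90.6 TPM and its relative Ezr, ezrin, 40.8, 45.0 and 43.4 TPM. Msn stood above Ezr in 3 of 3 libraries, by 0.68 ± 0.44 (log2, SD, n = 3). A second Ezr transcript without a coding sequence, Ezr-202, took 41.9%, 42.7% and 44.7% of its TPM, and the gene overlaps Sytl3 (15.3 TPM) on the opposite strand.

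Of 24 pairs of relatives, 23 had 1 order in 3 of 3 libraries, Myo1f and Myo1g being the exception. In the 12 pairs of a member and a relative outside the list, the member was higher in every library; members and pairs were chosen with earlier results known, so this order is only a description. The log2 differences of these pairs ran from 1.80 ± 0.27 for Diaph1 over Diaph2 to 9.24 ± 0.34 for Myh9 over Myh10 (SD, n = 3 each, on log2(TPM + 0.1), which understates the difference where the relative is near 0).

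**Figure D3:**
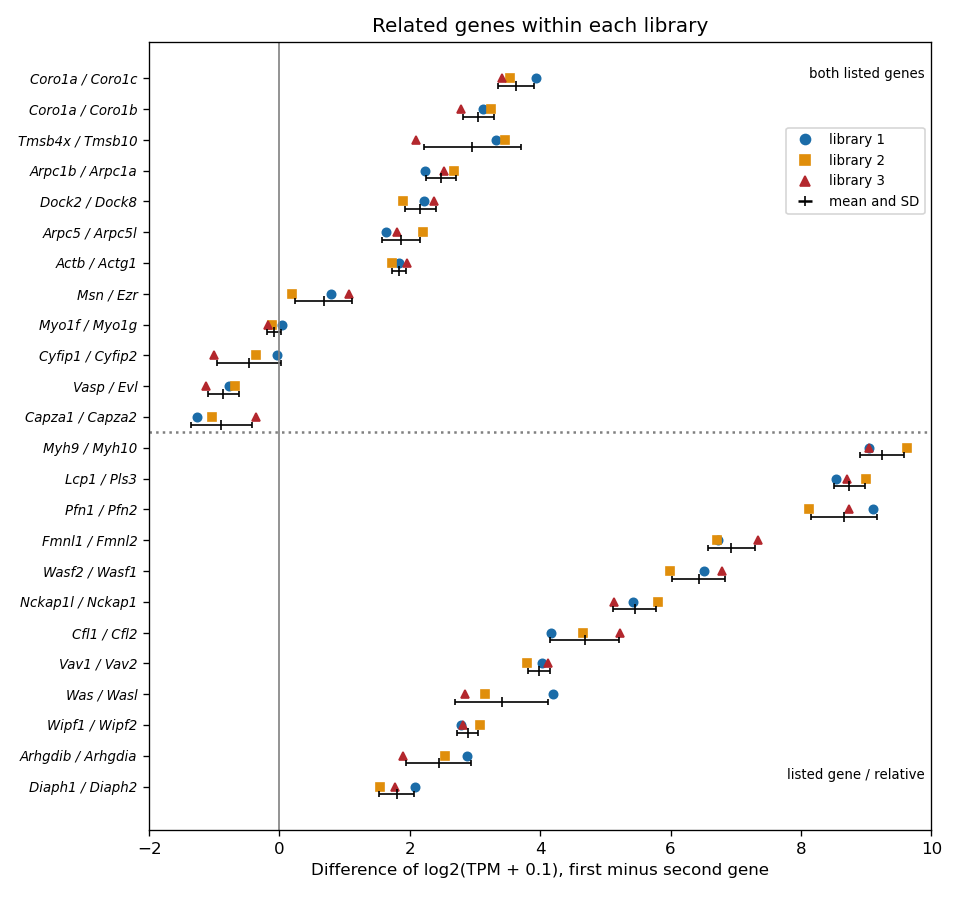
Difference of log2(TPM + 0.1) between related genes within each library (points), with the mean and SD of 3 libraries in black; pairs of 2 listed genes are above the dotted line and pairs of a listed gene and a relative below it. Points of Myo1f and Myo1g lie on both sides of 0, and all points of the lower pairs lie above 1.

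Transcript forms were compared in the transcript tables. For 40 of 50 members the same transcript had the highest TPM in all 3 libraries, for 39 of them a protein-coding one, and Actr3 was the other; for 35 the table made separately from the reads had the same leading transcript in each library. Protein-coding transcripts held a median of 91.5% of a member's TPM. They held under 75% in 15 members and under 50% in 3, which were Coro1b, Coro1c (48.4%) and Flna. No such shares over other genes are given here, so the counts of leading transcripts and coding shares only describe the members. Short transcripts count more in TPM than in reads, since TPM divides by length. With TPM of protein-coding transcripts alone, an alternative added after the data were seen, 40 members had a mean above 10 TPM, against 44 with all transcripts.

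Cdc42 has 2 protein forms that differ only in the last coding exon. Cdc42-202, the widely expressed form, took 78.8%, 83.9% and 87.3% of TPM and Cdc42-201, the form first described in brain, 21.2%, 16.1% and 12.7%. In the read-based tables Cdc42-201 held 20.7% ± 2.80 (SD, n = 3), so it was the minor form in both quantifications. The alternative exons follow 5′ to 3′ with the 30 of 87 differing bases in capitals (Cdc42-202 at chr4:137321106-137321192 and Cdc42-201 at chr4:137322533-137322619, both on the minus strand, mm10). They end just before the stop codon and set the tail to which a lipid is attached:
Cdc42-202: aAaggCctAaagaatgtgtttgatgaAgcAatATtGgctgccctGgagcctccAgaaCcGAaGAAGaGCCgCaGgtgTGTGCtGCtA
Cdc42-201: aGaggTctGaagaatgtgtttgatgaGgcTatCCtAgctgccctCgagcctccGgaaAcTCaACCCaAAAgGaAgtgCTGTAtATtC
The capitals are dense at the 3′ end, and over the whole protein 9 of 191 codons encode another residue. Myl6 also has alternative ends, of 26 bases in Myl6-201 (chr10:128491008-128491033) and 47 in Myl6-203 (chr10:128491301-128491347, minus strand, mm10), shown without capitals because they differ in length and were not aligned:
Myl6-201: agcttgtccggatggtgctgaatggc
Myl6-203: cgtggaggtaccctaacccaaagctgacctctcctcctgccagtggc
Myl6-201 held 57.3%, 52.0% and 69.4% of TPM and Myl6-203 29.4%, 41.7% and 20.1%, where the read-based tables gave Myl6-203 21.8%, 25.2% and 25.2%. The spread between libraries in the first quantification was not seen in the second. For Gsn, the transcript Gsn-205 held 88.9%, 100% and 89.7%, but 55.2%, 79.8% and 69.3% in the read-based tables, where the shorter Gsn-206 held the rest. Gsn-201, which encodes the secreted form of plasma, had 0.00 TPM in each library in both quantifications. Capzb-204 held 90.7%, 88.4% and 69.6% of Capzb TPM, lowest in library 3, and 87.7%, 80.5% and 53.7% in the read-based tables.

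**Figure D4:**
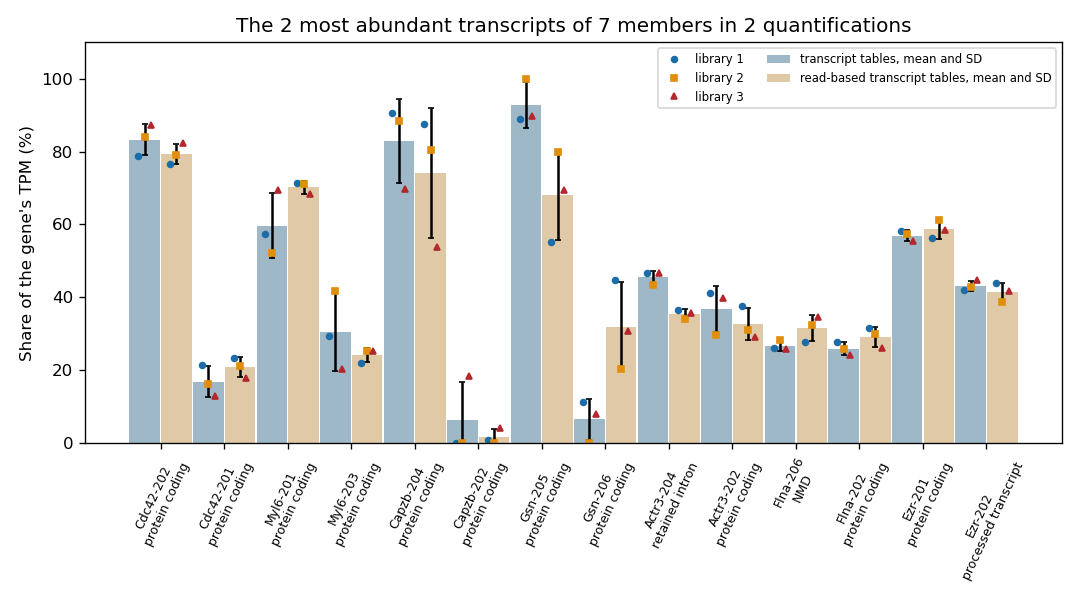
Share of the gene's TPM (%) in the 2 most abundant transcripts of each of 7 members, as the mean and SD of 3 libraries (bars and error bars) and each library (points), in the transcript tables and the read-based tables; NMD stands for nonsense-mediated decay. Cdc42-202 exceeds Cdc42-201 in every library of both, and Actr3-204 and Ezr-202 hold over 30% in each.

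The spread between libraries was modest for most members. The median coefficient of variation was 14.5% over the 50 genes, 24.5% over 8302 protein-coding genes with a mean of 1 TPM or more and 18.5% over 2076 with 10 TPM or more. Without library 3 the members' median was 9.77%. The matching value for protein-coding genes is not given here, so 9.77% cannot be set against 24.5% or 18.5%. Between libraries 1 and 2 no member differed by 1.5-fold or more once the shift of the median protein-coding gene (-0.16, log2) was taken off. The members' median difference was -0.02, and they ran from -0.52 (Arpc5l) to 0.45 (Coro1c). For the 8302 protein-coding genes the 10th and 90th percentiles were -0.57 and 0.58. The share of those genes past 1.5-fold is not given here, so the absence of such members is only a description.

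Library 3 differed more, in both directions. The median protein-coding gene was higher in TPM there by 0.21 and 0.37 (log2) than in libraries 1 and 2, and members are given relative to that shift; their medians were -0.18 and -0.28, with 34 of 50 lower and 16 higher in each comparison. Without that centring the medians were 0.03 and 0.09, so the direction of the list as a whole depends on it. Relative to the shift, 3 members were 1.5-fold or more higher in library 3 than in both others, where 10.3% of protein-coding genes were, and 5 were as much lower, where 10.2% were; these are 6.00% and 10% of the members, neither above the share of all genes. The 3 higher were Fmnl1 (by 0.62 and 1.03), Wipf1 (0.62 and 0.65) and Dock2 (0.59 and 0.65). The 5 lower were Capza2 (by -0.91 and -0.95), Arpc3 (-0.72 and -0.76), Coro1a (-0.69 and -0.73), Arpc2 (-0.72 and -0.67) and Tmsb4x (-0.65 and -0.61). Tmsb10 (0.58 and 0.76) lay just under that limit in the first comparison. These 8 genes were on the same side in uncentred TPM too. Beside them, NK cell markers were higher in library 3 for 8 of 8 genes (medians 1.48 and 1.33), platelet markers for 5 of 5 with a mean of 1 TPM or more (3.23 and 3.16), and red cell markers lower for 6 of 6 (-3.54 and -3.70). The neutrophil list summed to 142, 128 and 9.62 TPM, with Ly6g at 0 counts in each library, but nearly all of it was Retnlg (124, 114 and 0 TPM), and the 6 other genes summed to 17.5, 13.7 and 9.62 TPM. Of its 5 genes with a mean of 1 TPM or more, 1 was higher than in library 1 and 0 than in library 2 (medians -2.79 and -2.51). In TPM, Csf3r went the other way, with 5.99, 6.64 and 8.09 TPM in libraries 1, 2 and 3. The monocyte list summed to 2564, 2181 and 1564 TPM (medians -0.23 and -0.35), where Lyz2 and Ctss were lowest in library 3 and the 8 other genes summed to 619, 574 and 612 TPM. Among those 8, Adgre4 (78.4, 72.2 and 44.6 TPM) and Cx3cr1 were also lowest in library 3, and Csf1r, Tyrobp and Ccr2 were highest there. Relative to the shift, 2 of the 10 genes were higher than in library 1 and 1 than in library 2. The part of these cell types in the difference was not tested, and with 1 library on one side there is no replicate of it.

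**Figure D5:**
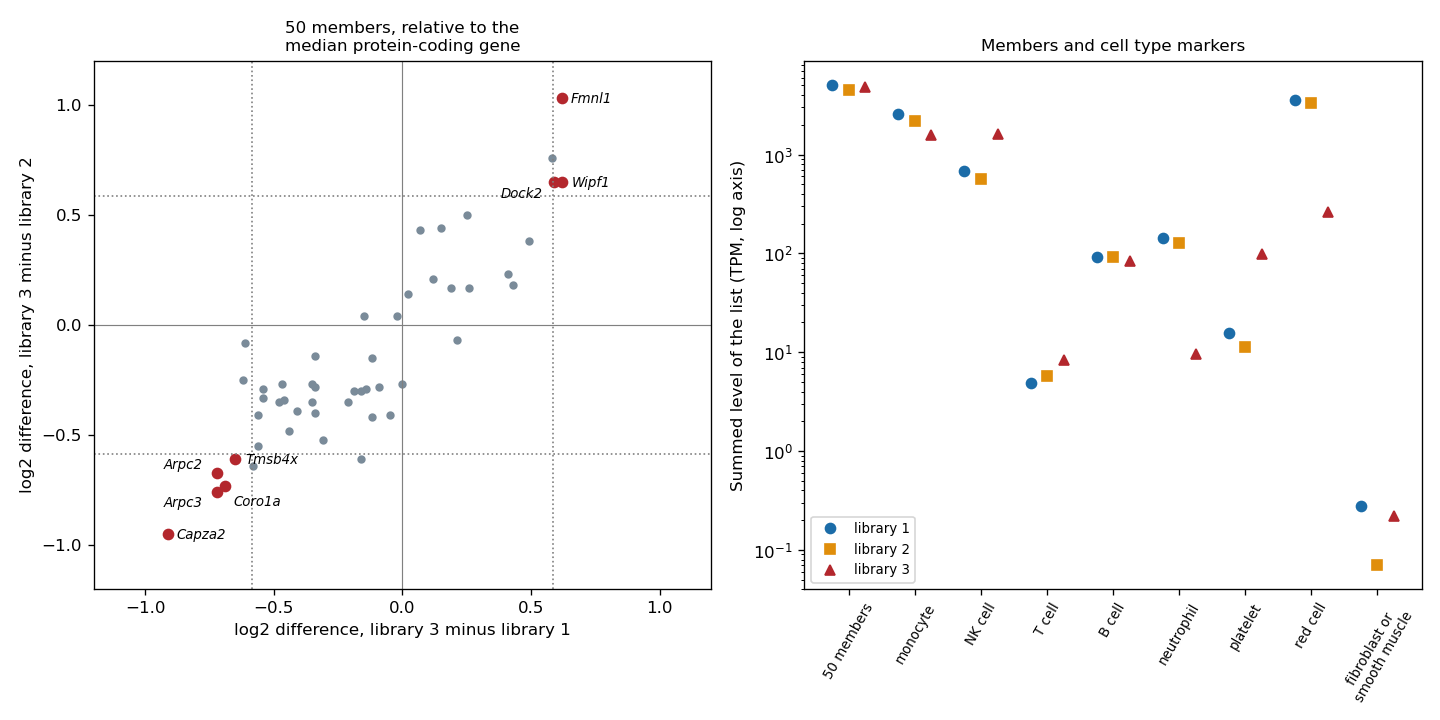
Left, log2 difference of each of the 50 genes between library 3 and library 1 (x axis) and library 2 (y axis), after the shift of the median protein-coding gene was taken off, with 1.5-fold as dotted lines and the 8 genes past both lines in red. Right, summed TPM (log axis) of the 50 genes and of each marker list by library: the members' sums lie between 4547 and 5093 TPM, while red cell, neutrophil, platelet and NK cell sums of library 3 stand apart.

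Of 113 other genes of actin biology, 98 could be tested and 67 were called above 1 TPM and 4 below it, 27 being neither, with a median of 3.85 TPM. Of all protein-coding genes tested, 54.0% were above 1 TPM and 6.02% below it. Actins and monomer handling gave 12 above of 15 tested, led by Cap1 (66.7 TPM ± 14.8), which helps recycle monomers, and Gmfg (60.4 TPM ± 8.22), which takes branches apart in blood cells. Nucleation and elongation gave 6 of 19, led by Hcls1 (68.4 TPM ± 6.15), the cortactin of blood cells, and Abi3 (18.5 TPM ± 3.15; SD, n = 3 each). Crosslinking and side-binding proteins gave 13 of 21, led by the tropomyosins Tpm3 (110 TPM ± 22.1) and Tpm4 (94.6 TPM ± 6.83). Myosins and light chains gave 9 of 11, led by the regulatory light chains Myl12b (92.3 TPM ± 10.9) and Myl12a (30.7 TPM ± 2.11), close relatives between which reads may have been divided. These 9 include Myl9, named after its values were seen, with 0.530, 0.620 and 9.82 TPM in libraries 1, 2 and 3. It was under 1 TPM in libraries 1 and 2, so its call rests on library 3. GTPases and their regulators gave 22 of 25, led by Arhgap45 (40.3 TPM ± 8.14) and Arhgap30 (37.6 TPM ± 6.11). Membrane linkers gave 5 of 7, led by Fermt3 (30.5 TPM ± 5.97), the kindlin of blood cells, and Rdx, radixin (11.9 TPM ± 1.73; SD, n = 3 each).

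The 4 genes below 1 TPM, named after their values were seen, were Fmnl2, Pls3, the nucleator Spire1 and the red cell ankyrin Ank1 (edgeR adjusted p = 0.00539, 0.0253, 0.0128 and 0.0221). Those of Pls3 were lost without any one library (0.102, 0.0742 and 0.0699 without library 1, 2 and 3), that of Spire1 without library 1 (0.0770), and that of Ank1 without library 1 (0.108) or 3 (0.116). On TPM over protein-coding genes alone Spire1 was above 1 TPM (edgeR adjusted p = 0.00303) and the 3 others on neither side, Spire1 was on neither side in the read-based tables (0.208), and none of the 4 was called with DESeq2 (0.369 to 0.489). The genes with 0 counts in all libraries were Acta1, Actc1, Actbl2, Lmod1, Wasf1, Wasf3, Cobl, Flnc and Myh14, where 0 counts allow up to 0.00398 to 0.0561 TPM by gene and library. Several of them are known from muscle or nerve.

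The CArG box, the site of serum response factor, whose cofactors sense free actin monomers, was searched on both strands in RefSeq promoter windows (around the annotated start, GRCm38.p6). It was found for Actg1, Arpc4 and Myl6 among 43 members with a window (6.98%) and in 1.81% of 27025 genes with one. Among the other actin genes it was found in 7 of 94 with a window (7.45%), so the members' share was not particular to the list. A match is only a description, and windows of 7 members, Actb among them, were not in the table used.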

How the data were processed

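Each of 3 libraries of total RNA was made from 100 ng of RNA depleted of ribosomal RNA, with a ScriptSeq kit and fragments of 200 to 594, 200 to 491 and 200 to 1000 bp, per the labels. The authors' gene tables, on mm10 with GENCODE M21 and again with M4, give an expected count and an effective length per gene. The deposited TPM values were scaled by the authors over all rows, small RNAs included. The deposited transcript tables also give the percent of each gene's TPM in a transcript; shares here were computed from TPM. A read-based M21 table holds, for each transcript, TPM and an estimated count, per the file headers. Programs and strand settings: not given in the sources used here. M21 gene tables were used unless stated.

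Rounded expected counts were fitted with edgeR 4.0.16 (glmQLFit, intercept only, offset the log of the count that 1 TPM stands for). F was computed from deviances and moderated dispersions, with Benjamini-Hochberg adjustment over 17678 genes with 10 or more summed counts and an effective length above 0. The test was tested on simulated data. Rows without a gene name were left out (0.000571%, 9.04e-05% and 7.53e-05% of counts). Differences used log2(TPM + 0.1). Alternatives used limma 3.58.1, DESeq2 1.42.0, the M4 and read-based tables, other scales and each library left out. Near-identical copies were searched with BLAST+ 2.17.0. Sequences come from GENCODE M21 transcripts. Any member may be named; of other actin genes, the 2 most abundant per role, listed relatives and genes at 0 counts. Members, lists and tests were chosen with earlier results of these data known. One further pair of a member and a relative is not reported here.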

Additional observations from a re-analysis of the deposited data

How the results depend on the processing

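The count of 50 members above 1 TPM and 0 below was the same under all 11 alternatives. Members above 10 TPM numbered 37 (DESeq2) to 50 (TPM of protein-coding genes alone), against 41. Members below 10 TPM, 2 in the report, were 0 with the read-based tables, DESeq2 or protein-coding TPM, and 1 to 3 with a library left out; Capg was fitted at 10.5 TPM in the read-based tables and Gsn and Capg at 41.2 and 57.9 TPM on protein-coding TPM. Other actin genes above 1 TPM numbered 59 to 87, against 67, and those below 1 TPM, 4 in the report, 14 or 15 with limma (pseudocount 0.1 or 1), 0 with DESeq2 or protein-coding TPM, and 1 to 5 with a library left out. The median coefficient of variation ran from 9.77% to 15.0% with a library left out. Without centring the median member difference of library 3 from library 2 was 0.09. The mean log2 difference changed sign for Vasp minus Evl with M4 (0.07, against -0.86), where the libraries no longer had 1 order. It also changed sign for Myo1f minus Myo1g in protein-coding transcripts (0.42, against -0.08), a pair without 1 order in the report. No paired analysis was possible because there is only 1 group. Alternatives for members below 10 TPM, for other actin genes below 1 TPM, for protein-coding transcripts, and for the spread and library differences of single members were added after seeing the data. Of 1313 values under an alternative, 1276 kept their direction and call or stayed within the spread. Many of these are calls of single members above 1 TPM, which changed under no alternative, so the share says little about the counts that moved. Leaving out a library leaves 2, and PCR duplicates cannot be told from separate molecules, so limits at 0 counts cover counting error only.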
